A study of Mus musculus with 8 samples.

Results

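The kinesin superfamily was examined in RNA-Seq of E14.5 mouse fetal ovaries, comparing *Bmpr1a*-cKO with control ovaries. Genes were taken by symbol, as *Kif* followed by a number and at most 1 letter, and had to hold 10 or more counts in at least 4 of the 8 libraries. Of the 25239 gene symbols counted, 38 matched the pattern and 35 met the count minimum. All 35 were also among the 14249 genes tested. The 3 that fell short were *Kif2b*, with 0 counts in every library, *Kif12*, with at most 2, and *Kif28*, with at most 9. The members were grouped by 1 role assigned here to each protein into 11 mitotic kinesins, 15 transport kinesins, 6 kinesins of the cilium and 3 others. Some kinesins have more than 1 role, so other placements are possible. *Kif2a* was placed with the others, and *Kif3a*, *Kif3b* and *Kif17* with transport.

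Control embryos were *Bmpr1a* fl/fl and mutant embryos were *Bmpr1a* fl/fl with 1 copy of *Oct4-Cre*, all on a C57BL/6 background. The controls were littermates of the mutants. Their *Bmpr1a* fl/fl dams received 1 mg of 4-hydroxytamoxifen and 0.5 mg of progesterone on 3 successive days (9.5, 10.5 and then 11.5 dpc), so that the control embryos were exposed to the drugs but carried no Cre. *Oct4-Cre* drives recombination in germ cells, and the libraries were made from whole ovaries, each from a pool of 2 ovary pairs, so that somatic cells contributed to every value. There were 4 libraries per genotype from 8 embryos of each genotype across 6 litters, and the litter of each library is not given in the sources used here.

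Kinesins are motor proteins that hydrolyse ATP to walk along microtubules or to take their ends apart. One set builds the mitotic spindle, moves chromosomes and completes cytokinesis, and its genes are transcribed mainly in dividing cells, in many cases late in the cell cycle. Another set carries vesicles, organelles and protein complexes through the cytoplasm, and a smaller set works in cilia. In the fetal ovary at this stage germ cells are leaving mitotic proliferation and entering meiosis, while somatic cells continue to divide.

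Library totals ran from 8562961 to 15365052 counts, and the 35 kinesin genes together held 0.207% to 0.224% of the counts of a library. At these depths 3 counts, taken as the floor of detection, were worth 0.189 to 0.357 CPM, and this floor covers counting error only. *Bmpr1a* itself had a log2 fold change of -0.16 (FDR = 0.0692 by edgeR), and as somatic cells keep the gene this does not check the labels. The paper reports lower *Bmpr1a* in mutant ovaries by qRT-PCR. It also reports lower *Zglp1*, a BMP target in germ cells, in the same RNA-Seq. Germ cell markers were present in all libraries. Their sum over 8 genes was 694 to 927 CPM in control against 733 to 1143 CPM in *Bmpr1a*-cKO ovaries. At an FDR below 0.05, 3 of the 8 rose (37.5%, against 17.3% of all genes) and 1, *Mael*, fell (12.5%, against 12.5%). *Dazl* held the largest part of this sum, with a mean of 326 CPM for the controls and 505 for the mutants. The higher sums of the mutants are thus mainly those of 1 gene, and *Ddx4* did not pass (FDR = 0.561 by edgeR). The sum of 7 pregranulosa cell markers was 806 to 877 CPM in control against 588 to 735 CPM in *Bmpr1a*-cKO ovaries. At an FDR below 0.05, 6 of the 7 fell (85.7%, against 12.5% of all genes). Macrophage markers summed to 33.1 to 41.3 CPM in control against 43.9 to 55.3 CPM in *Bmpr1a*-cKO ovaries. By the same rule 4 of 6 rose (66.7%, against 17.3% of all genes), while 0 of 6 endothelium and 0 of 6 stroma markers passed. Markers of the mesonephros, the tissue beside the gonad, summed to 130 to 160 CPM in control against 101 to 121 CPM in *Bmpr1a*-cKO ovaries. By the same rule 1 of 5, *Emx2*, fell (log2 fold change -0.26, FDR = 0.0202 by edgeR). *Emx2* held most of this sum, with a mean of 119 CPM for the controls and 99.0 for the mutants. The other 4 did not pass, so the lower sum is mainly that of 1 gene. The part of these cell types in the kinesin values was not tested. In bulk tissue, fewer cells of a type and less RNA per cell cannot be told apart.

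The promoters are shown as a description, and their part in the changes of the kinesins was not tested. Many genes of late mitosis carry 2 short elements near their start. These are the CCAAT box and the cell cycle homology region, searched here as CCAAT and as TTTGAA or TTCGAA, on both strands, in windows from 250 bases before to 50 bases after each start in RefSeq (GRCm38.p6). Windows were found for 29 of the 35 members. The cell cycle homology region was in 9 of 10 windows of mitotic kinesins and in 1 of 13 windows of transport kinesins, against 19.2% of all 32851 promoter windows. CCAAT was in 6 of the 10 mitotic and 4 of the 13 transport windows, against 37.4% of all windows. Both were present in 6 mitotic and 0 transport windows, against 7.52% of all. The 6 cilium windows, from 5 genes, held the cell cycle homology region in 2 cases, *Kif24* and *Kif27*. These are matches of letters and not sites of binding. Some windows lie inside the annotated gene and not at its 5′ end. That of *Kif2c* spans 117178723 to 117179022, while the 5′ end of the gene is at 117182639 (minus strand). That of *Kif14* begins at 136467598, after the gene start at 136466343 (plus strand). That of *Kif27* spans 58354898 to 58355197, while the 5′ end of the gene is at 58359122 (minus strand). The 1 transport match, in *Kif1a*, is in a window from 93082431 to 93082730, with the 5′ end of the gene at 93101951 (minus strand).

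The windows of 4 mitotic kinesins and of the 2 transport kinesins that changed most are printed 5′ to 3′ on the strand of the gene, with the matched letters in capitals. A match on the other strand reads ATTGG or TTCAAA. The windows lie at chr11:102925075-102925374 (minus strand), chr19:37376132-37376431 (plus), chr19:34922108-34922407 (plus), chr9:61946750-61947049 (minus), chr15:91049902-91050201 (minus) and chr2:49619036-49619335 (plus). *Kif18b* and *Kif11* rose and hold both elements, *Kif20b* rose and holds only the cell cycle homology region, 2 copies side by side, and *Kif23* fell and holds both. *Kif21a* and *Kif5c* hold neither.
Kif18b: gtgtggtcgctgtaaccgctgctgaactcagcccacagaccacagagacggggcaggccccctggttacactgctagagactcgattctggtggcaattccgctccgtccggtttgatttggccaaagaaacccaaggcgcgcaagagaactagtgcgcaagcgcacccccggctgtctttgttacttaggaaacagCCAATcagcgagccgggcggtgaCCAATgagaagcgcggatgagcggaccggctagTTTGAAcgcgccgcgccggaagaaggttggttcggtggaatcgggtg
Kif11: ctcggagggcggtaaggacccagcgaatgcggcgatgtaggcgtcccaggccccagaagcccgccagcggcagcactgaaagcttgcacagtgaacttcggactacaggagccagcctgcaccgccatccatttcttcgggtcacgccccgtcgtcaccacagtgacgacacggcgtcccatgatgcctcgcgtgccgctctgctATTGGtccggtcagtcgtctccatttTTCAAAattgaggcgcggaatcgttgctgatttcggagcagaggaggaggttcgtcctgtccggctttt
Kif20b: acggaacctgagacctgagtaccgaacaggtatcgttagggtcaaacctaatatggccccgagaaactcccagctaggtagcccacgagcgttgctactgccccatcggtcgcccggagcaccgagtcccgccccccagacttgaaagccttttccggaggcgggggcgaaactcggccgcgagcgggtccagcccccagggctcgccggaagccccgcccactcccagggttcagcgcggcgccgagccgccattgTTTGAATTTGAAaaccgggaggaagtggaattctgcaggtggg
Kif23: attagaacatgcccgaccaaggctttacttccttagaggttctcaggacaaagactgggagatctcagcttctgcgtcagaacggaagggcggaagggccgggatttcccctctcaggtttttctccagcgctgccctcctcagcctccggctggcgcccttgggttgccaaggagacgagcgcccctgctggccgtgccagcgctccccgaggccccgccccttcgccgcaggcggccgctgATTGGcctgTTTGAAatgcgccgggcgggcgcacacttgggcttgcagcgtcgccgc
Kif21a: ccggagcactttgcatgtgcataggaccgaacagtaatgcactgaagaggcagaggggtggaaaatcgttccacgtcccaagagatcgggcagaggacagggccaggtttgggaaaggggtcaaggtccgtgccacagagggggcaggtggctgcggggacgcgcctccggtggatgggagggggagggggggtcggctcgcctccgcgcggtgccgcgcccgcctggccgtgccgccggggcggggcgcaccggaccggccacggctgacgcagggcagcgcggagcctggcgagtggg
Kif5c: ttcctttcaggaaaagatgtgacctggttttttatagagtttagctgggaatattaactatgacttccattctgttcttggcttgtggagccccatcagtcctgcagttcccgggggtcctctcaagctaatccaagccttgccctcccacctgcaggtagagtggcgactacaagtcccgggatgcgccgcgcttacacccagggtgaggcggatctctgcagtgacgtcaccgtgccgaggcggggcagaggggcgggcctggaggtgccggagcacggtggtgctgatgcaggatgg

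In *Kif18b* the CCAAT matches began 53 and 30 bases before the start and the cell cycle homology region at base 4 of the transcript. In *Kif11* they began 45 and 19 bases before the start. In *Kif23* the CCAAT match began 7 bases before the start and the cell cycle homology region at base 3 of the transcript. The mitotic kinesin *Kif18a* had neither element in its window.

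Of the 35 kinesin genes, 11 were higher and 4 were lower in *Bmpr1a*-cKO ovaries at an FDR below 0.05, and 20 passed in neither direction. Over all genes tested, 17.3% were higher and 12.5% were lower by the same rule. DEGs, which also needed an absolute log2 fold change over 0.5, were 5 higher kinesins (*Kif21a*, *Kif5c*, *Kif6*, *Kif18b* and *Kif14*) and 1 lower (*Kif27*), against 6.11% and 4.06% of all genes. For 13 kinesins all mutant libraries exceeded all controls, and for 4 all mutant libraries were lower, against 16.1% and 11.7% of all genes. The median log2 fold change of the 35 was 0.04 and that of all genes was -0.0042. The groups differed in their counts. In the mitotic group 7 of 11 were higher and 1 lower, with a median of 0.38. In the transport group 2 of 15 were higher and 2 lower, with a median of -0.09. The cilium group had 2 of 6 higher and 1 lower (median -0.04), and of the 3 others none passed.

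**Figure D1:**
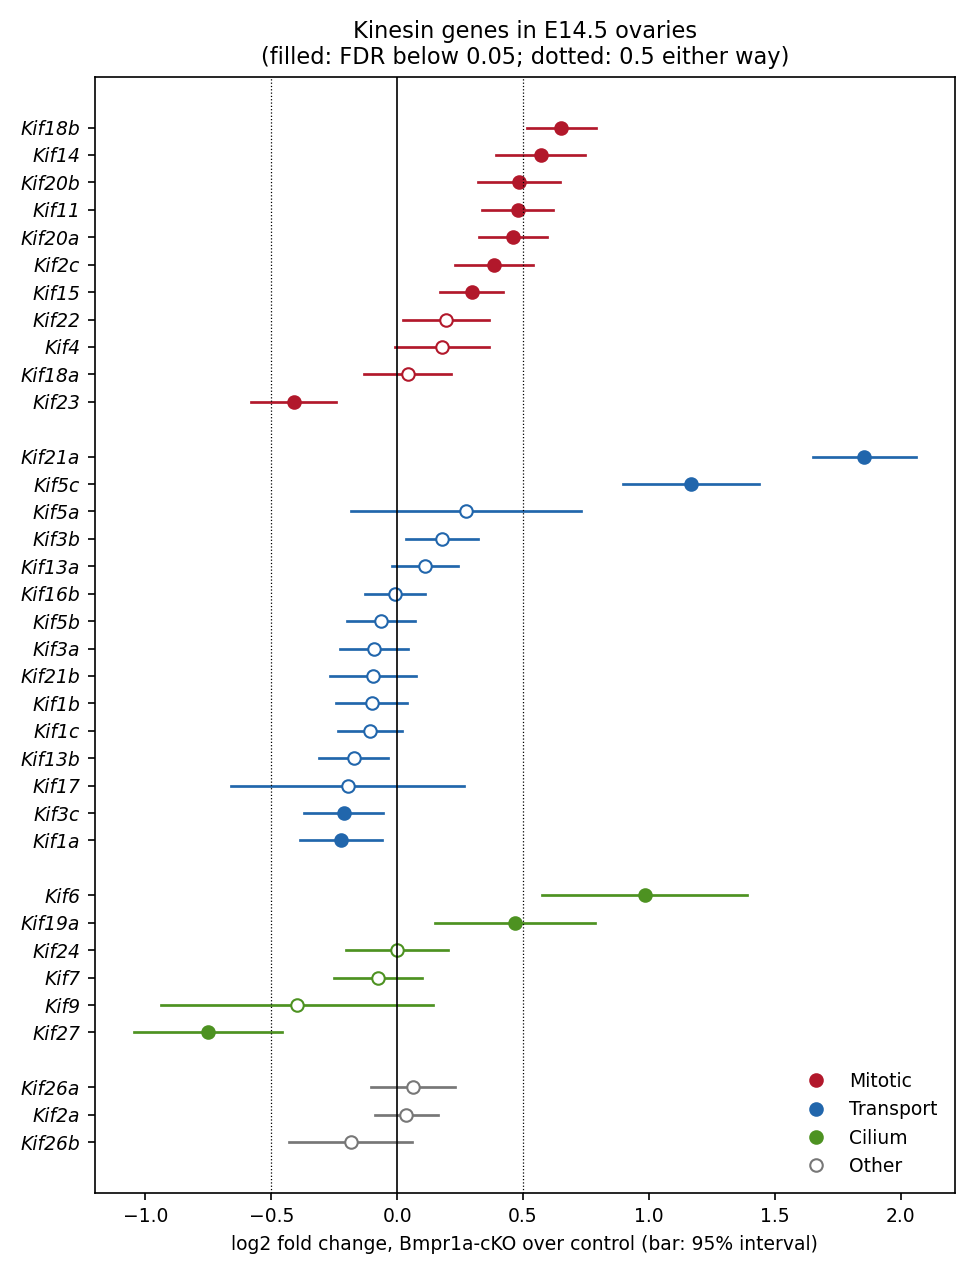
Log2 fold change of each of the 35 kinesin genes between *Bmpr1a*-cKO and control ovaries (horizontal axis), by group, with 95% intervals from edgeR; filled points had an FDR below 0.05 and dotted lines mark 0.5 either way. Of the mitotic kinesins 10 of 11 lie right of 0, 2 of which turn under germ cell marker scaling (*Kif18a* to -0.14 and *Kif4* to -0.010), and *Kif21a* lies farthest right at 1.86.

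Among the mitotic kinesins, the motors with the largest rises were *Kif18b* and *Kif14*. *Kif18b*, which regulates the length of astral microtubules, had 30.0, 30.4, 28.9 and 28.4 CPM in control libraries 1 to 4 and 44.1, 46.9, 47.1 and 46.7 CPM in *Bmpr1a*-cKO libraries 1 to 4. *Kif14*, required for cytokinesis, had 37.0, 34.0, 41.6 and 32.3 CPM in control and 49.1, 54.7, 57.6 and 52.8 CPM in *Bmpr1a*-cKO libraries. All *Bmpr1a*-cKO libraries were above all control libraries for both genes. The rise was 1.57-fold for *Kif18b* (log2 fold change 0.65, SE 0.0648, FDR = 3.60e-06 by edgeR) and 1.48-fold for *Kif14* (0.57, SE 0.0835, FDR = 0.000128).

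*Kif11*, the motor that pushes spindle poles apart, had 105, 112, 124 and 109 CPM in control and 141, 162, 161 and 161 CPM in *Bmpr1a*-cKO libraries. *Kif15*, which can share this task with *Kif11*, had 60.1, 65.3, 64.7 and 61.3 CPM in control and 76.6, 78.8, 78.9 and 74.4 CPM in *Bmpr1a*-cKO libraries. For each the lowest *Bmpr1a*-cKO library exceeded the highest control library. The change was 1.39-fold for *Kif11* (log2 fold change 0.48, SE 0.0666, FDR = 8.17e-05 by edgeR) and 1.23-fold for *Kif15* (0.30, SE 0.0591, FDR = 0.00154).

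*Kif20a*, which brings the chromosomal passenger complex to the central spindle in anaphase, had 97.2, 92.4, 106 and 88.8 CPM in control and 133, 130, 138 and 128 CPM in *Bmpr1a*-cKO libraries. Its relative *Kif20b*, which acts late in cytokinesis, had 49.5, 55.4, 59.6 and 53.2 CPM in control and 67.0, 83.0, 75.4 and 77.8 CPM in *Bmpr1a*-cKO libraries. *Kif2c*, a depolymerase that corrects faulty attachments of chromosomes, had 64.1, 62.6, 71.5 and 59.2 CPM in control and 75.3, 85.3, 88.5 and 85.9 CPM in *Bmpr1a*-cKO libraries. None of the 3 overlapped between genotypes. Their log2 fold changes were 0.46 for *Kif20a* (FDR = 7.65e-05), 0.48 for *Kif20b* (FDR = 0.000252) and 0.38 for *Kif2c* (FDR = 0.000993 by edgeR). *Kif20a* shares 1271 exonic bases with *Cdc23* on the opposite strand, and as it is not given whether counting used strand, its value is less certain.

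For 3 mitotic kinesins the libraries overlapped and the test did not pass. The chromokinesin *Kif22* had 57.6, 47.6, 56.9 and 48.7 CPM in control and 53.5, 61.9, 64.4 and 60.7 CPM in *Bmpr1a*-cKO libraries (log2 fold change 0.19, FDR = 0.0837 by edgeR). *Kif4*, a chromokinesin that also organises the central spindle, had 75.1, 65.4, 83.1 and 73.6 CPM in control and 70.3, 82.2, 91.8 and 91.1 CPM in *Bmpr1a*-cKO libraries (0.18, FDR = 0.147). In both, *Bmpr1a*-cKO library 1 lay within the control range. Its other 3 libraries lay above that range for *Kif22*, and 2 of them did for *Kif4*. Without that library both passed, at an FDR of 0.0224 for *Kif22* and 0.0185 for *Kif4*. Each passed in only that 1 of the 16 alternative fits. Other omissions gave an FDR of up to 0.253 for *Kif22* and 0.370 for *Kif4*. *Kif18a*, which dampens the movements of chromosomes at the spindle equator, had 38.4, 37.1, 45.0 and 42.4 CPM in control and 38.8, 40.2, 41.7 and 46.5 CPM in *Bmpr1a*-cKO libraries (0.04, 95% interval -0.13 to 0.21, FDR = 0.740). *Kif4* shares 832 exonic bases with *Pdzd11* on the opposite strand.

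*Kif23* went the other way. It encodes the motor of centralspindlin, the complex that bundles midzone microtubules and triggers the cleavage furrow. It had 77.4, 70.6, 84.6 and 82.6 CPM in control and 51.4, 62.7, 57.7 and 64.3 CPM in *Bmpr1a*-cKO libraries. All mutant libraries lay below all controls. The level fell to 0.752 of control (log2 fold change -0.41, SE 0.0793, 95% interval -0.58 to -0.24, FDR = 0.00120 by edgeR). *Racgap1*, which encodes the other subunit of centralspindlin, had 74.6, 69.5, 77.7 and 77.0 CPM in control and 77.6, 71.5, 69.2 and 72.9 CPM in *Bmpr1a*-cKO libraries (-0.04, FDR = 0.684). The ratio of *Kif23* counts to *Racgap1* counts was 1.02 to 1.09 in control against 0.663 to 0.882 in *Bmpr1a*-cKO libraries.

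**Figure D2:**
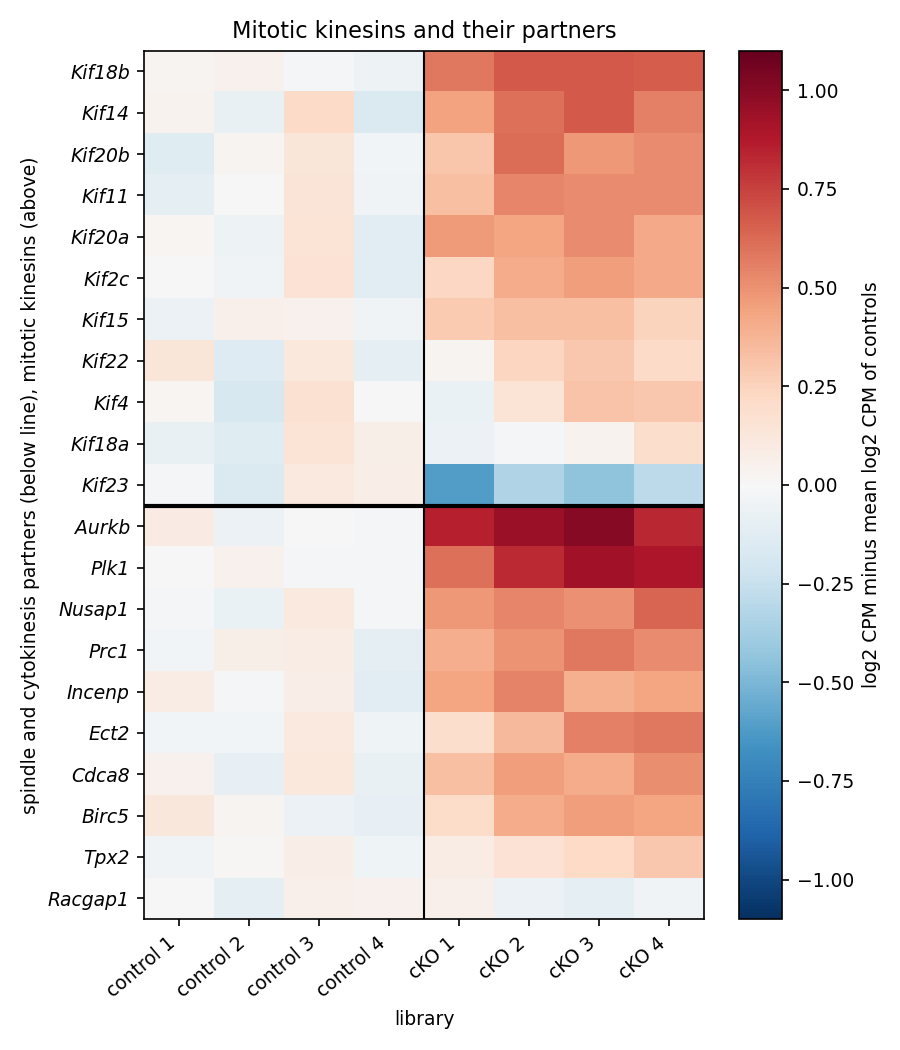
Log2 CPM minus the mean of the control libraries (colour) for the 11 mitotic kinesins (above the line) and 10 spindle and cytokinesis partners (below it), with 1 column per library. *Kif23* is the 1 clearly blue row in the *Bmpr1a*-cKO libraries among otherwise red or pale ones.

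The mitotic kinesins together made up 33.5, 33.2, 36.0 and 32.1% of all kinesin counts in control libraries and 35.8, 39.2, 39.8 and 40.1% in *Bmpr1a*-cKO libraries. These shares overlapped, as *Bmpr1a*-cKO library 1 lay just below control library 3. *Bmpr1a*-cKO library 1 was the lowest of its genotype for 9 of the 11 mitotic kinesins, and control library 3 was the highest of its genotype for 8. The germ cell marker sums showed the same order within each genotype at these ends. They were 733 CPM in *Bmpr1a*-cKO library 1 against 985, 1010 and 1143 CPM in libraries 2 to 4. In control library 3 they were 927 CPM, against 694, 790 and 705 CPM in libraries 1, 2 and 4. This order was not limited to germ cells. Macrophage marker sums were also highest of the controls in library 3 (41.3 CPM) and lowest of the mutants in library 1 (43.9 CPM). Pregranulosa marker sums were the reverse, lowest of the controls in library 3 (806 CPM) and highest of the mutants in library 1 (735 CPM). Scaling each library to the 8 germ cell markers in place of TMM ended the calls of all 7 mitotic kinesins that rose, with *Kif18b* at 0.47 (FDR = 0.106) and *Kif2c* at 0.21 (FDR = 0.534), and moved the median of all genes to -0.18. The loss was not limited to kinesins, since under this scaling 2.95% of all genes were higher and 5.85% lower, against 17.3% and 12.5% with TMM. Of those 8 markers, 4 had themselves changed, 3 upwards and 1 downwards. The part of germ cell content, or of other cell types, in the rise was not tested.

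Of 10 spindle partners of these motors, 9 were higher (90%, against 17.3% of all genes) and *Racgap1* was not. Their median log2 fold change was 0.44, and these partners were not examined under germ cell marker scaling. The kinase genes *Aurkb* and *Plk1* had 0.91 and 0.82, *Nusap1*, which bundles spindle microtubules, had 0.54, and *Prc1*, which crosslinks midzone microtubules and binds *Kif4* protein, had 0.50 (each a DEG, FDR at most 3.99e-05 by edgeR). Of 5 kinesin genes named outside the *Kif* pattern, 3 were higher (60%) and 0 lower, against 17.3% and 12.5% of all genes. *Kifc1*, a minus-end motor that focuses spindle poles, had 33.0, 28.6, 32.9 and 30.2 CPM in control and 43.5, 45.3, 51.1 and 46.1 CPM in *Bmpr1a*-cKO libraries (log2 fold change 0.58, FDR = 4.87e-05). *Kifc5b*, a near-identical copy of *Kifc1*, had 0.41. How reads common to both genes were counted is not given, so both values are less certain. *Cenpe*, the motor of the kinetochore, had 0.15 (FDR = 0.0447). *Kifc2* and *Kifc3* did not pass. Partner promoters were searched as above, and both elements were in 7 of the 9 windows found for 7 of the 10 genes.

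Among the transport kinesins, *Kif21a* had the largest change of the superfamily. It encodes a plus-end motor known for restraining microtubule growth at the cell cortex and in axons, and lies on the minus strand of chromosome 15 from 90933276 to 91049948 (mm10). It had 14.3, 16.0, 15.5 and 14.8 CPM in control and 45.6, 54.8, 63.5 and 55.1 CPM in *Bmpr1a*-cKO libraries. The lowest *Bmpr1a*-cKO library was far above the highest control library. The rise was 3.62-fold (log2 fold change 1.86, SE 0.0954, 95% interval 1.65 to 2.06, FDR = 7.09e-09 by edgeR), and it ran from 1.78 to 1.93 with 1 library left out. No annotated exon of another gene overlapped its exons.

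*Kif21b*, the other member of its subfamily, had 59.3, 49.1, 62.9 and 64.5 CPM in control and 56.3, 57.0, 53.4 and 54.2 CPM in *Bmpr1a*-cKO libraries (log2 fold change -0.10, 95% interval -0.27 to 0.08, FDR = 0.407 by edgeR), and the genotypes overlapped. The ratio of *Kif21a* to *Kif21b* counts within a library, which does not depend on how libraries are scaled to each other, was 0.241, 0.326, 0.247 and 0.230 in control and 0.810, 0.962, 1.19 and 1.02 in *Bmpr1a*-cKO libraries. The mean log2 ratio thus rose by 1.93. Per kilobase of exon, *Kif21a* went from 2.34 ± 0.117 to 8.46 ± 1.13 CPM (SD, n = 4 each), and from place 28 to place 17 of the 35 kinesins.

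**Figure D3:**
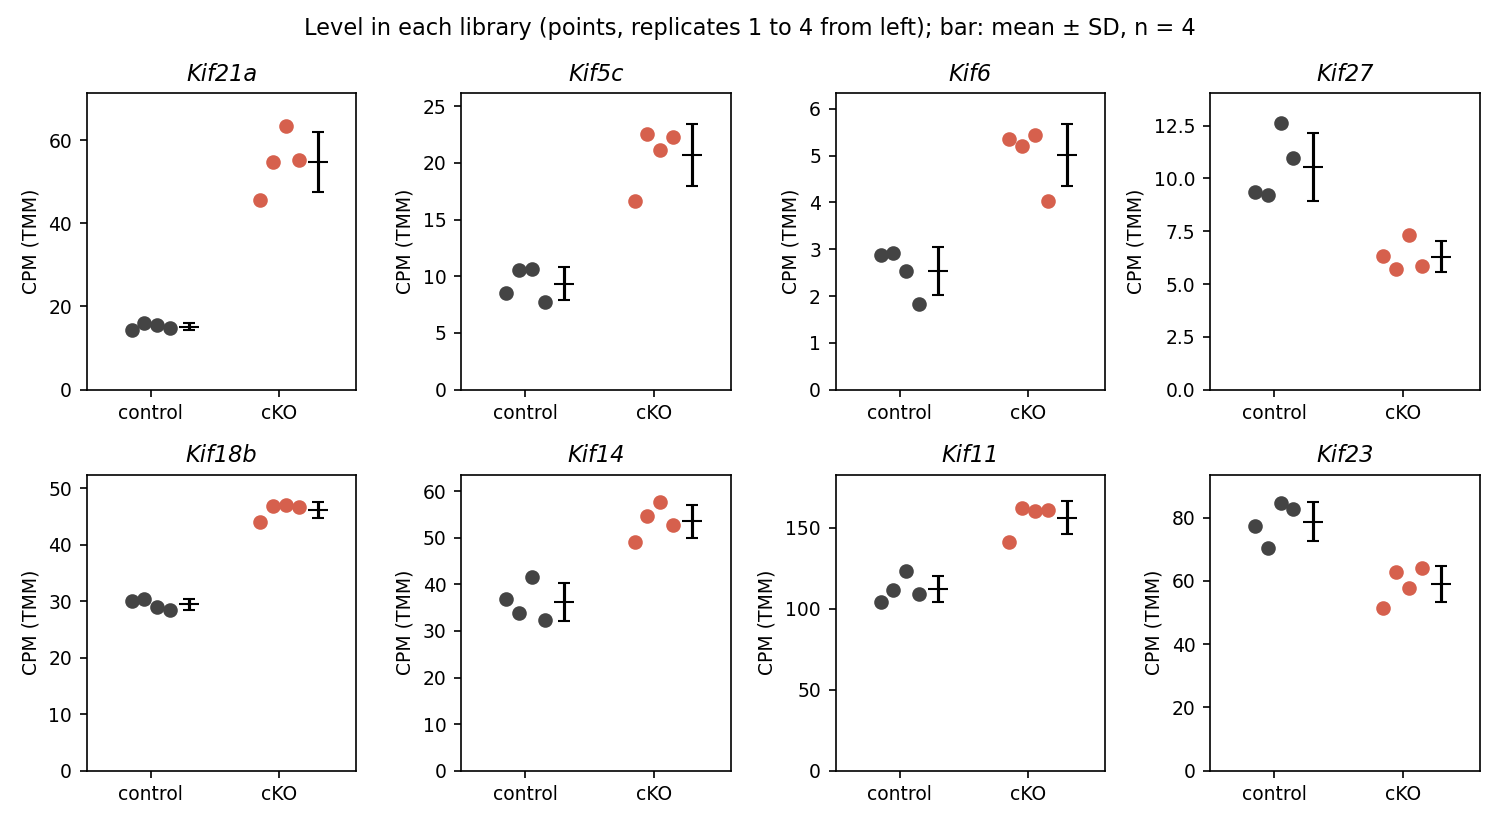
CPM in each of the 8 libraries (points, replicates 1 to 4 from left to right) for the 6 kinesin DEGs and for *Kif11* and *Kif23*, with the mean ± SD of 4 libraries beside each genotype. In all 8 panels the genotypes do not overlap, and *Kif21a* goes from 15.2 to 54.8 CPM on average.

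*Kif5c* was the other transport kinesin that rose. It is 1 of 3 heavy chains of conventional kinesin, known mainly from neurons, where *Kif5a* is also found, while *Kif5b* is made in most tissues. It had 8.54, 10.5, 10.7 and 7.69 CPM in control and 16.7, 22.6, 21.1 and 22.3 CPM in *Bmpr1a*-cKO libraries. The genotypes did not overlap, with *Bmpr1a*-cKO library 1 the lowest of its group, and the rise was 2.25-fold (log2 fold change 1.17, SE 0.126, FDR = 8.52e-06 by edgeR). *Kif5b* had 208, 234, 206 and 228 CPM in control and 224, 211, 197 and 207 CPM in *Bmpr1a*-cKO libraries (-0.06, 95% interval -0.20 to 0.07, FDR = 0.484). *Kif5a* was low, at 3.20 to 3.59 CPM in control against 2.26 to 5.65 CPM in *Bmpr1a*-cKO libraries (0.27, FDR = 0.373). The mean log2 ratio of *Kif5c* to *Kif5b* counts rose by 1.21, and that of *Kif5a* to *Kif5b* overlapped between the genotypes. Neuron markers summed to 9.73 to 11.4 CPM in control against 8.72 to 12.2 CPM in *Bmpr1a*-cKO ovaries, with 1 of the 9 at 0 in all libraries and 0 of the 5 tested called.

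The other 13 transport kinesins ran from -0.22 to 0.27. *Kif1a*, which carries precursors of synaptic vesicles, fell from 38.6 ± 0.609 to 33.2 ± 3.30 CPM (SD, n = 4 each; log2 fold change -0.22, FDR = 0.0405 by edgeR). *Kif3c*, which pairs with *Kif3a*, fell from 28.3 ± 1.42 to 24.4 ± 1.15 CPM (-0.21, FDR = 0.0419). In both genes all mutant libraries lay below all controls, but the calls were close to the threshold. With control library 1, 3 or 4 or *Bmpr1a*-cKO library 3 or 4 left out neither passed, without control library 2 *Kif1a* did not, and without *Bmpr1a*-cKO library 1 or 2 *Kif3c* did not. *Kif3c* also did not pass with DESeq2 (FDR = 0.0613) or without a filter on low counts (FDR = 0.0541), and neither passed under germ cell marker scaling. *Kif3c* shares 2617 exonic bases with *1110002L01Rik* and 588 with *Gm48512*, both on the opposite strand. *Kif3b*, the usual partner of *Kif3a*, had 44.0, 46.6, 42.6 and 47.8 CPM in control and 53.9, 52.9, 49.4 and 49.0 CPM in *Bmpr1a*-cKO libraries, which did not overlap, at a log2 fold change of 0.18 (FDR = 0.0582). *Kif13a* did not overlap either, at 62.4 to 64.9 CPM in control against 65.3 to 74.3 CPM in *Bmpr1a*-cKO libraries (0.11, FDR = 0.204). The remaining 9 comprise *Kif5a* and *Kif5b*, *Kif21b*, *Kif1b* and *Kif1c*, *Kif3a*, *Kif13b*, *Kif16b* and *Kif17*, and none passed the test. *Kif13b* lay closest (-0.17, FDR = 0.0543) and passed in 5 of the 16 alternative fits, among them DESeq2 (FDR = 0.0421). *Kif21b* passed only without control library 2 (-0.18, FDR = 0.0482) and *Kif1c* only without *Bmpr1a*-cKO library 1 (-0.15, FDR = 0.0441).

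Within-library ratios were also set out for other members of shared subfamilies. The pairs were chosen with the values known, and therefore no test of them is given. The mean log2 ratio rose by 0.27 for *Kif3b* to *Kif3a*, by 0.28 for *Kif13a* to *Kif13b* and by 0.61 for *Kif18b* to *Kif18a*, and in these pairs the genotypes did not overlap. It moved by -0.01 for *Kif1c* to *Kif1b* and by -0.02 for *Kif20a* to *Kif20b*, with overlap. For *Kif3c* to *Kif3a* it moved by -0.12 and for *Kif1a* to *Kif1b* by -0.12, again with overlap. For *Kif26a* to *Kif26b* it rose by 0.25, also with overlap.

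**Figure D4:**
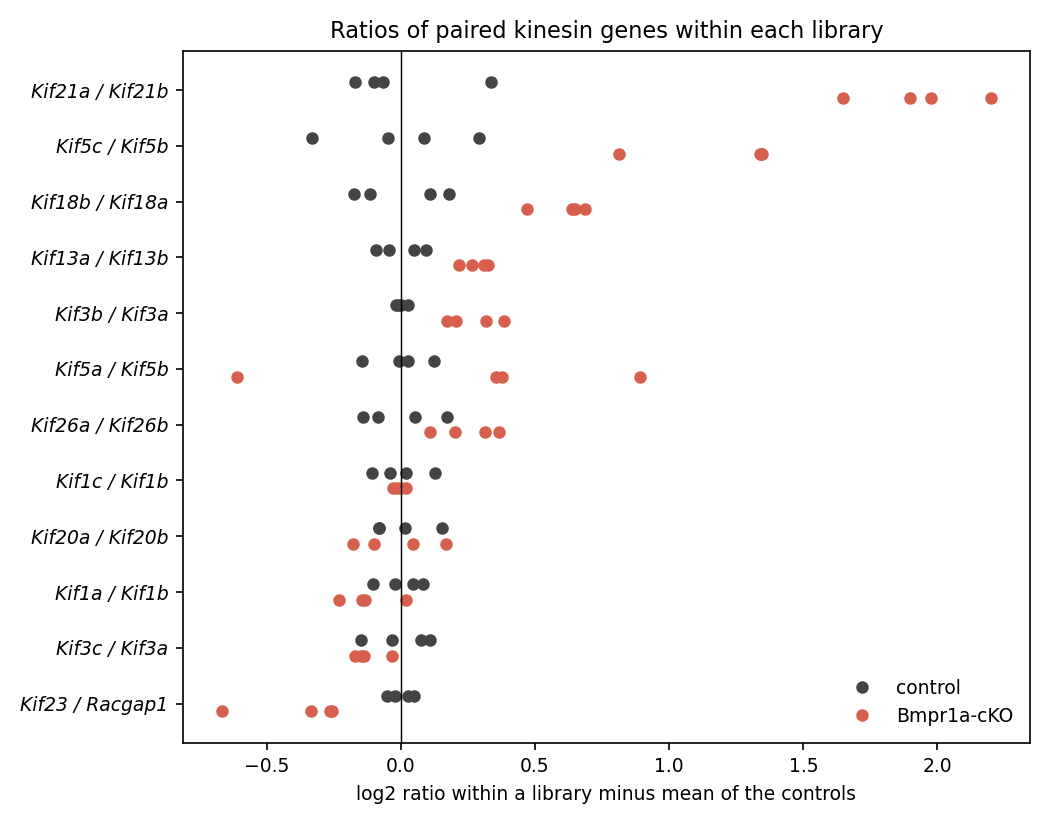
Log2 ratio of counts of 12 gene pairs within each library, minus the mean of the controls (horizontal axis), with 1 point per library. The ratio of *Kif21a* to *Kif21b* rose by 1.93 and that of *Kif23* to *Racgap1* fell by 0.38, and in both the genotypes do not overlap.

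Of 11 genes listed for the light chains and adaptors that link transport kinesins to cargo, 10 were tested. Of these 10% rose and 20% fell, a share near that of all genes (17.3% and 12.5%). *Trak1*, which ties kinesin to mitochondria, rose by 0.24 on the log2 scale (FDR = 0.0167 by edgeR). The light chain gene *Klc2* had a log2 fold change of -0.27 (FDR = 0.0241) and the scaffold gene *Mapk8ip3* of -0.22 (FDR = 0.0418). The light chain gene *Klc1* had -0.07 (FDR = 0.422).

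The kinesins of the cilium included changes in both directions. *Kif6*, a motor of motile cilia, had 2.87, 2.92, 2.53 and 1.83 CPM in control and 5.36, 5.20, 5.44 and 4.02 CPM in *Bmpr1a*-cKO libraries, without overlap. It rose 1.98-fold (log2 fold change 0.98, SE 0.192, FDR = 0.00132 by edgeR). *Kif19a*, which limits the length of motile cilia, had 3.86, 4.51, 4.49 and 4.29 CPM in control and 7.03, 5.72, 6.06 and 5.18 CPM in *Bmpr1a*-cKO libraries. It did not overlap, but its call (0.47, FDR = 0.0268) was lost without control library 1 or 4 or *Bmpr1a*-cKO library 1, 2 or 3, with an FDR of at most 0.0737, and also with DESeq2 (FDR = 0.0569) and under germ cell marker scaling (FDR = 0.470). *Kif27*, a relative of *Kif7* that takes part in building motile cilia, had 9.36, 9.20, 12.6 and 11.0 CPM in control and 6.31, 5.72, 7.32 and 5.86 CPM in *Bmpr1a*-cKO libraries. Every *Bmpr1a*-cKO library was lower, and the level fell to 0.594 of control (-0.75, SE 0.138, FDR = 0.000801). *Kif27* shares 332 exonic bases with the antisense gene *Gm26555*, and *Kif6* shares 62 with *Gm16554*.

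*Kif7*, which acts in Hedgehog signalling at the primary cilium, had 24.9 to 27.9 CPM in control against 23.2 to 28.0 CPM in *Bmpr1a*-cKO libraries (log2 fold change -0.08, FDR = 0.530 by edgeR). *Kif24*, which restrains the growth of cilia from centrioles, had 19.0 to 24.0 CPM in control against 19.8 to 24.4 CPM in *Bmpr1a*-cKO libraries (FDR = 0.994). *Kif9* was low, at 1.68 to 3.12 CPM in control against 1.25 to 2.25 CPM in *Bmpr1a*-cKO libraries (-0.40, 95% interval -0.94 to 0.14, FDR = 0.266). Markers of multiciliated cells summed to 5.34 to 7.20 CPM in control against 6.24 to 9.62 CPM in *Bmpr1a*-cKO ovaries, and of the 3 of 5 that were tested *Rsph1* rose (0.98, FDR = 0.00151) while *Foxj1*, their defining regulator, had -0.35 (FDR = 0.474). Their part in the values of *Kif6* and *Kif19a* was not tested.

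The 3 other kinesins did not pass the test. *Kif2a*, a depolymerase related to *Kif2c*, had 94.7, 101, 99.3 and 102 CPM in control and 94.4, 101, 104 and 108 CPM in *Bmpr1a*-cKO libraries (log2 fold change 0.04, 95% interval -0.09 to 0.16, FDR = 0.695 by edgeR). *Kif26a* and *Kif26b*, which lack motor activity, had 0.06 (FDR = 0.597) and -0.19 (FDR = 0.254). Without *Bmpr1a*-cKO library 1, *Kif26b* had -0.32 and passed (FDR = 0.0112). On the opposite strand *Kif2a* shares 1229 exonic bases with *Dimt1*, *Kif26b* shares 909 with *Gm16564* and *Kif7* shares 877 with *9330171B17Rik*.

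Per kilobase of exon, the 3 highest kinesins of control ovaries were *Kif5b*, *Kif20a* and *Kif1c*, at 27.4 ± 1.78, 22.2 ± 1.75 and 16.3 ± 0.485 CPM (SD, n = 4). *Kif1c*, which moves vesicles in many cell types, had 116, 115, 123 and 119 CPM in control and 120, 107, 108 and 105 CPM in *Bmpr1a*-cKO libraries before division by length (log2 fold change -0.11, FDR = 0.194 by edgeR). Places 3 to 7, held by *Kif1c*, *Kif3a*, *Kif2a*, *Kif11* and *Kif2c*, ran from 16.3 to 14.8 CPM per kilobase, and each differed from the next by less than the larger SD of the pair. In *Bmpr1a*-cKO ovaries *Kif20a* was highest at 30.5 ± 0.953, followed by *Kif5b* at 26.3 ± 1.40 and *Kif11* at 20.9 ± 1.35 CPM per kilobase. *Kif23* went from place 11 to place 18. The lowest levels in control were those of *Kif6*, *Kif5a*, *Kif9* and *Kif17*, at 0.422 to 0.626 CPM per kilobase.

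**Figure D5:**
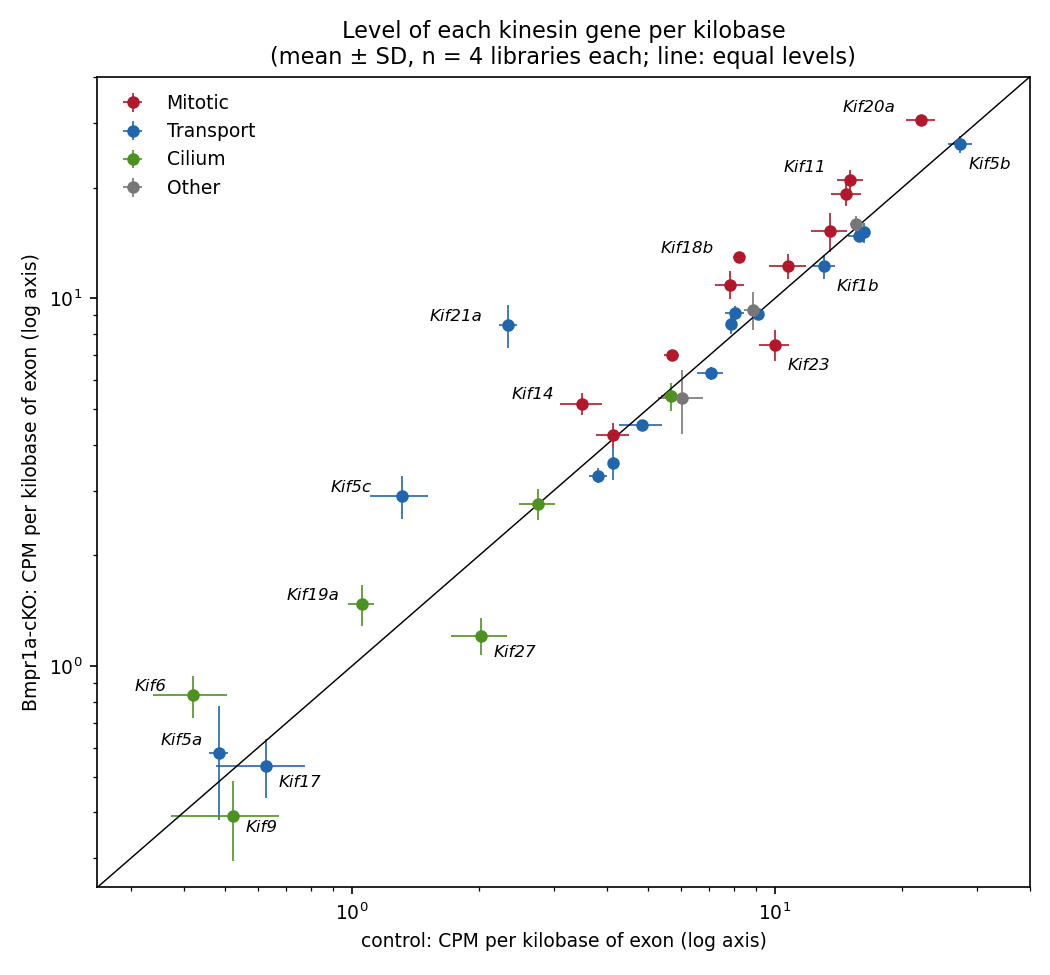
Mean CPM per kilobase of exon of the 35 kinesin genes in control (horizontal, log axis) and *Bmpr1a*-cKO ovaries (vertical, log axis), with SD bars over 4 libraries and a line of equal levels. *Kif21a* lies farthest above the line, at 2.34 against 8.46, and *Kif23*, *Kif27* and *Kif9* lie below it.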

How the data were processed

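RNA was extracted from pools of 2 ovary pairs and strand-specific paired-end libraries were sequenced. Per the labels, the authors used Trimmomatic 0.39, FastQC 0.11.9, STAR 2.5.2 and edgeR, with mm10 as the genome build. The authors deposited, for each library, raw counts of reads per gene symbol, whole numbers without normalization. The annotation and strand setting of the counting are not given in the sources used here, so overlapping genes on either strand can affect a value. A deposited table of CPM was not used here.

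Counts were analysed in R 4.3.3. After filterByExpr and TMM scaling, the genotypes were compared by the quasi-likelihood test of edgeR 4.0.16, two-sided. FDR is the Benjamini-Hochberg value over the 14249 genes that were kept. DEGs had an FDR below 0.05 and an absolute log2 fold change over 0.5. CPM uses the scaled library size, and single-library log2 values carried a pseudocount of 0.5. Levels per kilobase used exon lengths from GENCODE on mm10, which also gave the overlaps. All members may be named; values by library are given for DEGs, mitotic kinesins and the 3 highest levels per kilobase, and for others where a result turns on them, chosen with the values known. The members and gene lists were chosen with earlier results of these data known. Counts of list members carry no test. The controls were littermates of the mutants, but the litters in each pool are not given, so litter was in no fit and the p-values measure the spread between these pools.

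The alternatives were DESeq2 1.42.0 and voom of limma 3.58.1 as the test, scaling by germ cell markers, RLE or library size, no filter or at least 10 counts in every library, a block for the replicate number, the omission of single libraries, *Kif21a* and *Kif21b* left out of the transport list, and a log2 fold change over 1. The procedure was tested on simulated data.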

Additional observations from a re-analysis of the deposited data

Results flagged for a closer look

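Among 70 groups of 4 libraries (35 kinesin genes in each genotype), 5 held 1 library far from the other 3 by Dixon's test, and chance gives about 1 in 20 such groups. In *Bmpr1a*-cKO library 1, *Kif11* was low, at 141 CPM against 160.7 to 162 in the others, and so was *Kif18b*, at 44.1 CPM against 46.7 to 47.1. In the same library *Kif1b* was high, at 239 CPM against 204 to 209. *Kif6* was low in *Bmpr1a*-cKO library 4, at 4.02 CPM against 5.20 to 5.44. *Kif26a* was low in control library 2, at 57.2 CPM against 62.2 to 63.2.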

How the results depend on the processing

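The calls of *Kif21a*, *Kif5c*, *Kif6*, *Kif27* and *Kif23* held in all 16 alternative fits, and those of the 7 mitotic kinesins that rose held in 15. Germ cell marker scaling left 3 of 11 higher and 2 of 4 lower kinesins, 0 of the 7 mitotic kinesins and 0 of the 2 lower transport kinesins, while the calls over all genes went from 17.3% to 2.95% higher and from 12.5% to 5.85% lower. Library size scaling gave 13.1% higher and 17.3% lower over all genes, with 11 kinesins higher and 5 lower. Without a filter on low counts 1 transport kinesin was lower. Without *Kif21a* and *Kif21b* 1 of 13 transport kinesins was higher, and at an absolute log2 fold change over 1 there were 2 DEGs. With 1 library left out, 10 to 12 kinesins were higher and 2 to 5 lower, 7 to 9 mitotic kinesins were higher, 0 to 3 transport kinesins were lower, 6 to 9 kinesins were DEGs and *Kif21a* ran from 1.78 to 1.93. Some differences that had not passed the test turned sign and still did not pass. They were, under germ cell marker scaling, *Kif13a* (-0.061), *Kif18a* (-0.14), *Kif26a* (-0.085), *Kif2a* (-0.15) and *Kif4* (-0.010), under library size scaling *Kif18a* (-0.0099) and *Kif2a* (-0.017), and with 1 library left out *Kif16b* (-0.034 to 0.0062), *Kif18a* (-0.022 to 0.084), *Kif24* (-0.073 to 0.048) and *Kif26a* (-0.019 to 0.11). The cause of these changes was not tested.

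With the replicate number as a block (the replicate block), 11 kinesins were higher and 5 lower, 7 mitotic kinesins were higher and *Kif21a* had 1.85. Same-numbered libraries had correlations of -0.09 to 0.22, and 2 of 4 pairs correlated best with their own number. The numbers were not taken to pair the libraries, as 1 of the 4 correlations was below 0.1 and no source ties a number to a litter. *Kif5a*, *Kif9* and *Kif17*, with 12 to 60 counts a library, had the widest 95% intervals of the 35.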

Other observations

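Cytoplasmic dynein, the motor complex that walks toward microtubule minus ends, and its activator dynactin were set beside the kinesins. Of 18 genes tested, 2 were higher (11.1%) and 0 were lower at an FDR below 0.05 by edgeR, against 17.3% and 12.5% of all genes, with a median log2 fold change of 0.08. The light chain gene *Dynll1* had 0.41 (FDR = 0.000610) and the intermediate chain gene *Dync1i2* had 0.29 (FDR = 0.00124). The heavy chain gene *Dync1h1* averaged 782 CPM in control against 781 CPM in *Bmpr1a*-cKO ovaries (FDR = 0.990).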
